A study of Homo sapiens with 4 samples.

Results

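BT474 cells treated for 4 h with fulvestrant and neratinib together were compared with BT474 cells given the vehicle DMSO for the same time, gene by gene across the transcriptome. BT474 is an established human breast cancer line of luminal character that carries the estrogen receptor and extra copies of ERBB2, the gene for the HER2 receptor tyrosine kinase. The treated cells received 100 nM fulvestrant, which blocks the estrogen receptor and marks it for degradation, and 200 nM neratinib, which covalently inhibits the kinases of EGFR, HER2 and HER4. The control cells received neither drug, and both cultures shared the same medium, RPMI 1640 with 10% fetal bovine serum. The series holds 4 single-cell RNA-seq libraries, 1 each for both drugs, neratinib alone, fulvestrant alone and DMSO. Each library came from 1 culture sample of the 1 line, so effects of drug, culture and library cannot be told apart.

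A barcode counted as a cell with at least 5000 unique molecular identifiers (UMIs, each standing for 1 captured RNA molecule), at least 500 genes detected and at most 50% of UMIs from the mitochondrial genome. There were 3800 such cells with both drugs and 4240 with DMSO, 8040 of the 14867 cells in the 4 libraries. They held 90314413 UMIs with both drugs and 101920190 with DMSO. Median depth was 22202.5 UMIs and 4202 genes per cell with both drugs, and 22699.5 UMIs and 4492 genes with DMSO. The libraries were told apart by the number at the end of each barcode, matched to the number that opens each sample title, a match that no other label states. The 2 libraries shared 2 cell barcodes, 0.0526% of the cells with both drugs and 0.0472% of the DMSO cells. All 10 luminal epithelial markers were measured in these cells, as were 0 of 10 immune markers, 1 of 10 endothelial markers (VWF), 2 of 10 fibroblast markers (COL1A1 and VIM) and 3 of 10 basal and mesenchymal markers. Those 3 were ITGA6, at 6.54 CPM with both drugs and 8.67 CPM with DMSO, FN1 and CDH2, both of them below 2 CPM in both libraries.

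Mitochondrial transcripts took a larger part of the RNA after treatment. The median cell had 21.04% mitochondrial UMIs with both drugs (5th to 95th percentile 15.2% to 28.2%) and 16.2% with DMSO (11.7% to 22.7%). The ceiling removed 76 barcodes from the library with both drugs and 61 from the DMSO library. Under a ceiling of 20%, 1463 cells with both drugs (38.5%) and 3671 DMSO cells (86.6%) would have been kept. Scored by the expression of cycle genes, 57.0% of cells with both drugs were in G1 (95% interval 55.4% to 58.6%), against 52.9% with DMSO (51.4% to 54.4%). The share in S was 18.7% with both drugs and 21.5% with DMSO, and the share in G2 or M was 24.2% with both drugs and 25.6% with DMSO. The intervals for G2 or M overlapped, at 22.9% to 25.6% with both drugs and 24.3% to 26.9% with DMSO. These intervals are exact binomial ones and cover counting error only. Of the 42 measured genes that score S, 5 themselves fell (11.9%, below the 15.7% of all measured genes), RRM2 (-1.43) most. Of the 54 that score G2 or M, 6 fell (11.1%) and 2 rose (3.70%, below the 8.01% of all measured genes). What the scoring genes and free RNA add to the phase shares was not tested, and no difference in cycling is read from those shares.

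HER2, paired with HER3, signals through 2 main branches. The RAS and ERK kinases induce immediate early transcription factors and their own feedback phosphatases, and the PI3K and AKT kinases hold FOXO transcription factors out of the nucleus and switch on mTORC1, which drives ribosome production and restrains autophagy. The estrogen receptor, bound to estrogen response elements, induces growth factors, MYC, CCND1 and the progesterone receptor in luminal breast cells. The 2 pathways meet at MYC and CCND1, which take input from both.

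UMIs were summed over the cells of a library and scaled to CPM, the counts of a gene per 1000000 UMIs of the library. Each log2 ratio below is CPM with both drugs over CPM with DMSO, followed in brackets by a 95% interval from the 2 Poisson counts. With 1 library a side there is no replicate error and no test, and the intervals cover counting error only. A gene was measured with a mean of at least 1 CPM over the 2 libraries, and it is said to have risen or fallen where it differed at least 1.5-fold with an interval off 0. Of 12153 measured genes, 974 rose (8.01%) and 1907 fell (15.7%). At least 2-fold, 398 rose and 611 fell, and at least 4-fold, 42 rose and 60 fell. The median gene stood at -0.15, so a gene that tracked the bulk of the transcriptome sits slightly below 0. Of the genes called, 33.8% were higher. That share was 44.7% when CPM was computed without the mitochondrially encoded genes and 55.5% when the libraries were scaled so that the median log2 ratio of genes with a mean of at least 20 CPM was 0, called below the scaling to the median ratio. That scaling adds 0.18 to every log2 ratio. Of the 186 genes named as lower by the rules used here, 44 then miss the fold, among them PGR, GATA3, KRT8, KRT18, BCL2, TNFRSF10B and IGFBP5. Since each value is a sum over cells, fewer cells of a kind and less RNA per cell cannot be told apart in it.

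**Figure D1:**
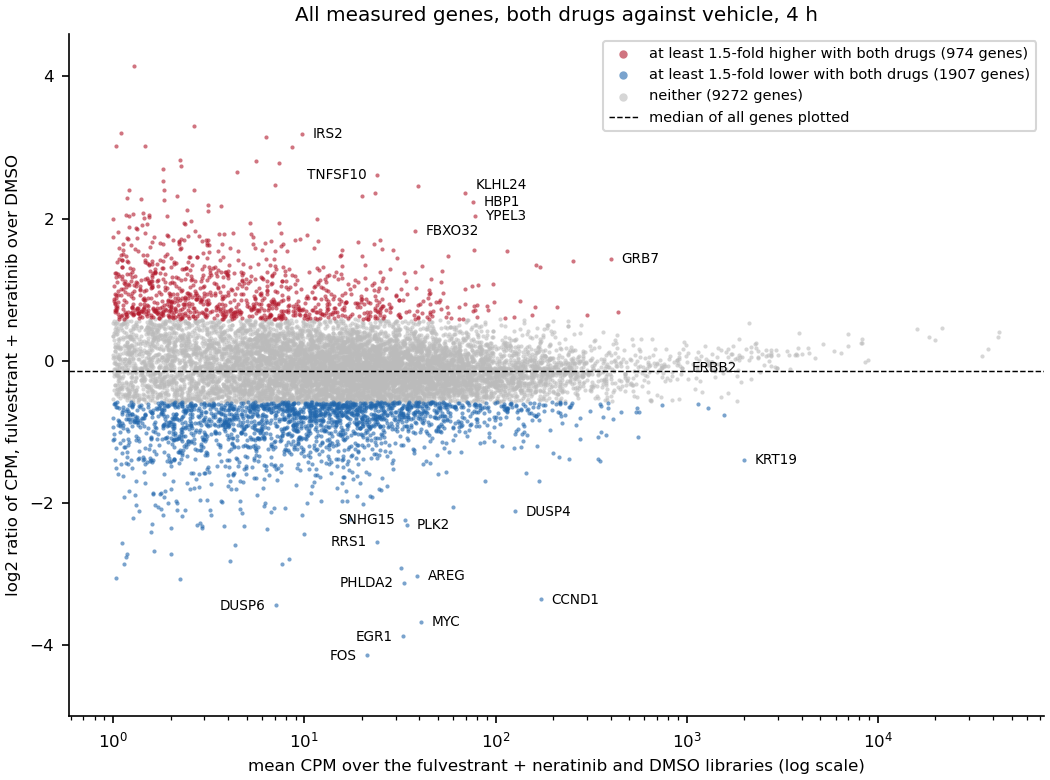
Mean CPM of the 2 libraries (x axis, log scale) against the log2 ratio of CPM, fulvestrant + neratinib over DMSO (y axis), 1 point per measured gene. Red points (974 genes) rose at least 1.5-fold, blue points (1907 genes) fell, grey points did neither, and the dashed line is the median of -0.15. FOS, EGR1, MYC and CCND1 lie lowest among genes of moderate level.

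The deepest falls were among transcription factors that ERK signalling induces within minutes. FOS, a subunit of the AP-1 dimer, had 2.27 CPM with both drugs (95% Poisson interval 1.97 to 2.60) and 40.3 CPM with DMSO (39.1 to 41.5), a 17.7-fold fall and a log2 ratio of -4.15 [-4.36, -3.95]. EGR1, a zinc finger factor, had 4.19 CPM with both drugs and 61.6 CPM with DMSO, 14.7-fold lower at -3.88 [-4.03, -3.73]. Both levels with the drugs lay far below those with DMSO, with intervals that did not meet. FOSB stood at 3.04 CPM with both drugs and 12.9 CPM with DMSO. IER2 stood at 79.7 CPM with both drugs and 257 CPM with DMSO. KLF10 had a log2 ratio of -1.52 and the orphan receptor NR4A1 one of -1.46. Of 21 measured immediate early factors, 9 fell (42.9%, against 15.7% of all measured genes) and 0 rose, with a median of -0.55. The family did not move as one. JUN, the partner of FOS in AP-1, had 216 CPM with both drugs and 247 CPM with DMSO (-0.19), and ATF3 had -0.52, values looked up after the rest of the list was seen.

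The feedback inhibitors that ERK induces against itself fell in 9 of 16 measured cases, and 0 rose, with a median of -0.76. The share that fell was 56.25%, against 15.7% of all measured genes. DUSP6, a phosphatase dedicated to ERK, had 1.20 CPM with both drugs and 13.0 CPM with DMSO, 10.9-fold lower (-3.44 [-3.74, -3.16]). DUSP4, a nuclear phosphatase of the same class, had 47.5 CPM with both drugs and 207 CPM with DMSO (-2.12). DUSP5 and DUSP7 had log2 ratios of -1.73 and -1.52. The RAF and RAS antagonists SPRED1 (-2.36) and SPRY1 (-1.21) fell as well. DUSP1, which answers to stress kinases too, had 67.5 CPM with both drugs and 63.6 CPM with DMSO.

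Of 24 further genes known to depend on ERK or ETS factors, 13 fell and 0 rose, with a median of -0.69. The share that fell was 54.2%, against 15.7% of all measured genes. PHLDA2, an imprinted growth restrainer, had 6.80 CPM with both drugs and 59.7 CPM with DMSO (-3.13). The ephrin receptor EPHA2 had 0.221 CPM with both drugs and 1.85 CPM with DMSO (-3.07). PLK2 and PLK3, kinases of the polo family, had -2.31 and -2.28, the secreted peptide precursor VGF had -1.98, and ETS2 itself had -1.89.

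The proximal promoter of EGR1 is shown because it carries the element through which serum response factor and its ERK-activated partners act. It lies at chr5:138465229-138465528 on the plus strand of GRCh38.p14 (RefSeq), 250 bases before to 50 after the gene's start, with each CArG box in capitals.
EGR1: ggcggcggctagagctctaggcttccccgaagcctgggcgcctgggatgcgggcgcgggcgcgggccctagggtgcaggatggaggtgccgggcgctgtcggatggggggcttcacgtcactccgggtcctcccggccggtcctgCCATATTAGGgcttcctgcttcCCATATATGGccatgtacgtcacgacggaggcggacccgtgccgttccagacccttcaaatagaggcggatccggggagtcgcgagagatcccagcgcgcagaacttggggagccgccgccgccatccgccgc
The 2 boxes lie 105 to 96 and 83 to 74 bases before the start. A CArG box was found on either strand in 1.29% of 27305 RefSeq promoter windows of that length, and in 2 of the 19 immediate early factors with a window, EGR1 and SRF. Those windows, used for each motif below too, include genes not measured here. SRF had 4.31 CPM with both drugs and 6.31 CPM with DMSO. A match describes the letters of the window and shows no binding.

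Among the receptors and their ligands, the target of neratinib changed little at the RNA level. ERBB2 had 908 CPM with both drugs and 973 CPM with DMSO (-0.10), and EGFR had 7.83 CPM with both drugs and 10.6 CPM with DMSO (-0.44). ERBB3, the kinase-poor partner that couples HER2 to PI3K, rose to 131 CPM with both drugs, against 62.4 CPM with DMSO (1.07 [1.03, 1.12]). GRB7, an adaptor encoded beside ERBB2 and amplified with it, rose to 588 CPM with both drugs, against 218 CPM with DMSO (1.43 [1.41, 1.45]). The docking protein GAB1 rose as well, to 6.69 CPM with both drugs, against 3.28 CPM with DMSO. In the other direction, the EGFR ligand amphiregulin (AREG) had 8.54 CPM with both drugs and 69.5 CPM with DMSO (-3.03 [-3.14, -2.92]), and betacellulin (BTC) had -0.89. ERRFI1, a protein that binds and inhibits ERBB kinases, had -1.12. Over this list of 19 measured genes, 5 rose and 5 fell (26.3% each), with a median of -0.10. Of all measured genes, 8.01% rose and 15.7% fell. The genes listed around ERBB2 on chromosome 17 did not move as a block: of 22 measured, 4 rose (18.2%) and 2 fell (9.09%). The lowest was RARA, the retinoic acid receptor alpha, at 6.36 CPM with both drugs and 24.97 CPM with DMSO (-1.97).

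The insulin branch of the same pathway changed in both directions, with 5 of 20 measured genes higher and 5 lower. Each side was 25%, against 8.01% higher and 15.7% lower among all measured genes. The lower ones were 2 with the scaling to the median ratio. IRS2, the docking protein of the insulin and IGF1 receptors, had 17.6 CPM with both drugs (16.7 to 18.5) and 1.92 CPM with DMSO (1.66 to 2.21), 9.13-fold higher at 3.19 [2.98, 3.41]. The insulin receptor gene INSR rose to 17.9 CPM with both drugs, against 7.19 CPM with DMSO (1.32). PIK3IP1, a membrane protein that restrains PI3K, rose to 33.2 CPM with both drugs, against 6.69 CPM with DMSO (2.31). PIK3R1, the regulatory subunit of PI3K, fell to 8.61 CPM with both drugs, against 22.8 CPM with DMSO (-1.40). The phosphatases PHLPP2 (-0.77) and INPPL1 (-0.75), which oppose AKT signalling, were among the genes that fell.

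FOXO factors and their targets were mostly higher. Of 37 measured, 21 rose (56.8%, against 8.01% of all measured genes) and 2 fell, with a median of 1.07. This list, like the others, was chosen with earlier results of these data known. The share therefore describes the listed genes and is no test of FOXO activity. TNFSF10, the death ligand TRAIL, had 41.3 CPM with both drugs and 6.77 CPM with DMSO (2.61 [2.49, 2.73]). CREBRF, a regulator of CREB3 and of energy storage, had 66.3 CPM with both drugs and 12.1 CPM with DMSO (2.45). KLHL24, a substrate adaptor of a cullin ubiquitin ligase, had 116 CPM with both drugs and 22.7 CPM with DMSO (2.36). The selective autophagy receptor gene CALCOCO1 had 39.2 CPM with both drugs and 7.60 CPM with DMSO (2.36). HBP1, a repressor of cell cycle genes, had 126 CPM with both drugs and 26.8 CPM with DMSO (2.23 [2.17, 2.29]). CCDC28A stood at 2.00, and FBXO32, the muscle atrophy ubiquitin ligase adaptor, at 1.83. Each of these levels was over 3 times higher with both drugs. FOXO3, looked up afterwards, had 113 CPM with both drugs and 69.2 CPM with DMSO (0.71), while the falls were FOXO6 (-1.56) and KLF2 (-0.93).

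The promoters below are shown for 3 of the 20 highest genes at a mean of at least 10 CPM. Each holds GTAAACA, the core to which FOXO factors bind, in capitals. They are RefSeq windows of GRCh38.p14: HBP1 at chr7:107168753-107169052 on the plus strand, YPEL3 at chr16:30096164-30096463 on the minus strand and SELENOP at chr5:42811843-42812142 on the minus strand.
HBP1: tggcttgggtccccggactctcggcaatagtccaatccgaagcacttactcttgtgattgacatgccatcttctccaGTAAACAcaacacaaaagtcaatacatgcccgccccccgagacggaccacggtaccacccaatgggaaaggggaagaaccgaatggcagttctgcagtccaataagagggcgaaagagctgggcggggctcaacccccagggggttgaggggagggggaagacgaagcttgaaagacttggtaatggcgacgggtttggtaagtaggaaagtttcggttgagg
YPEL3: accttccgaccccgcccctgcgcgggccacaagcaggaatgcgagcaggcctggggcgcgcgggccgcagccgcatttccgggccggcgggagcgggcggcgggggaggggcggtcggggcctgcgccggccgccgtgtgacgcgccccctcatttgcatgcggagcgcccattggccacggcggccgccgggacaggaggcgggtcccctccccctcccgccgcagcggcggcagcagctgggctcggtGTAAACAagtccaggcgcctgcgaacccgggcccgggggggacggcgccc
SELENOP: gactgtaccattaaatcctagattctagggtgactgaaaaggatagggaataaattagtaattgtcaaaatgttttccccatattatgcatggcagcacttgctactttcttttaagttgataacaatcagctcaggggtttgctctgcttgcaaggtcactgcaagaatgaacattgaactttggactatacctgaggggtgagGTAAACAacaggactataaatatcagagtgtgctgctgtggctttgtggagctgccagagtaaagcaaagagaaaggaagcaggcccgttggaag
The motif lies 173 to 167 bases before the start in HBP1, 45 to 39 before it in SELENOP, and at the first 7 bases from the start in YPEL3. Searched on both strands, GTAAACA was in 3.41% of all 27305 windows and in 5 of the 31 listed FOXO genes with a window (16.1%). Those 5 were BCL2L11, CCDC28A, HBP1, TXNIP and YPEL3, of which BCL2L11 (0.06) and TXNIP (-0.37) did not rise. The full list of the 20 highest genes was matched to a window too rarely for such a share.

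Of 9 measured YPEL and arrestin-domain genes, 4 rose and 1 fell (44.4% and 11.1%, against 8.01% and 15.7% of all genes). YPEL3, a conserved protein tied to growth arrest, had 126 CPM with both drugs and 30.6 CPM with DMSO (2.04), and its relatives YPEL1 (1.70), YPEL2 (1.26) and YPEL5 (0.80) rose too. ARRDC4, an arrestin-domain protein that limits glucose uptake, fell to 2.60 CPM with both drugs, against 7.27 CPM with DMSO (-1.48). Its relatives ARRDC1 (-0.49), TXNIP (-0.37), ARRDC2 (-0.22) and, on the higher side, ARRDC3 (0.48) did not pass. Outside these families, HDAC5 (1.68), a class II histone deacetylase, ABTB1 (1.77), RBM20 (1.58), GLCCI1 (1.57) and GBP2 (1.55) were among the 20 highest. So were GLUL, glutamine synthetase, at 43.6 CPM with both drugs and 14.9 CPM with DMSO, SELENOP, a selenium transport protein, at 116 CPM with both drugs and 39.2 CPM with DMSO, and PNRC1, a nuclear receptor coregulator, at 172 CPM with both drugs and 58.8 CPM with DMSO. BTG1, an antiproliferative protein, rose to 233 CPM with both drugs, against 91.8 CPM with DMSO (1.34).

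mTORC1 components and inhibitors rose in 7 of 24 measured cases and fell in 1, with a median of -0.05. These shares were 29.2% and 4.17%, against 8.01% and 15.7% of all measured genes. CASTOR2 (1.66), the stress-induced SESN3 (1.54), TSC1 (0.98), DDIT4 (0.92) and folliculin (FLCN, 0.90) were among those that rose. RICTOR, a subunit of mTORC2, rose to 42.3 CPM with both drugs, against 23.4 CPM with DMSO. In the autophagy and lysosome list, 8 of 48 measured genes rose and 1 fell (16.7% and 2.08%), with a median of 0.17. Besides CALCOCO1 they included GABARAPL1 (1.70), a conjugated autophagosome protein, ATG14 (1.12), the lysosomal calcium channel MCOLN1 (1.01) and the receptor NBR1 (0.86). The gene that fell was MITF (-1.10), a lysosomal gene regulator. Most lysosomal genes did not pass, among them LAMP1 at 77.8 CPM with both drugs and 67.4 CPM with DMSO. CALCOCO1, GABARAPL1, ATG14 and SESN3 are also counted among the FOXO genes above, so these lists are not separate results.

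Within the BCL2 family, 1 of 15 measured genes rose and 3 fell (6.67% and 20%), shares near the 8.01% and 15.7% of all measured genes, so the members below are given as single genes. BMF, a BH3-only protein that antagonises BCL2, rose to 8.29 CPM with both drugs, against 2.17 CPM with DMSO (1.94). PMAIP1 (NOXA), another BH3-only protein, fell to 11.3 CPM with both drugs, against 29.4 CPM with DMSO (-1.38). BOK (-0.97) and BCL2 itself (-0.76) fell as well. While TRAIL rose, both of its death receptors fell, TNFRSF10A to 1.77 CPM with both drugs, against 4.33 CPM with DMSO (-1.29), and TNFRSF10B to 1.99 CPM with both drugs, against 3.06 CPM with DMSO (-0.62). Of 25 measured p53 targets, 11 fell and 1 rose (44% and 4%, against 15.7% and 8.01% of all genes). The falls included TIGAR (-2.36), AEN (-2.09) and GDF15 (-1.58), with PLK2 and PLK3 counted in this list too. With the scaling to the median ratio 7 fell and 2 rose.

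**Figure D2:**
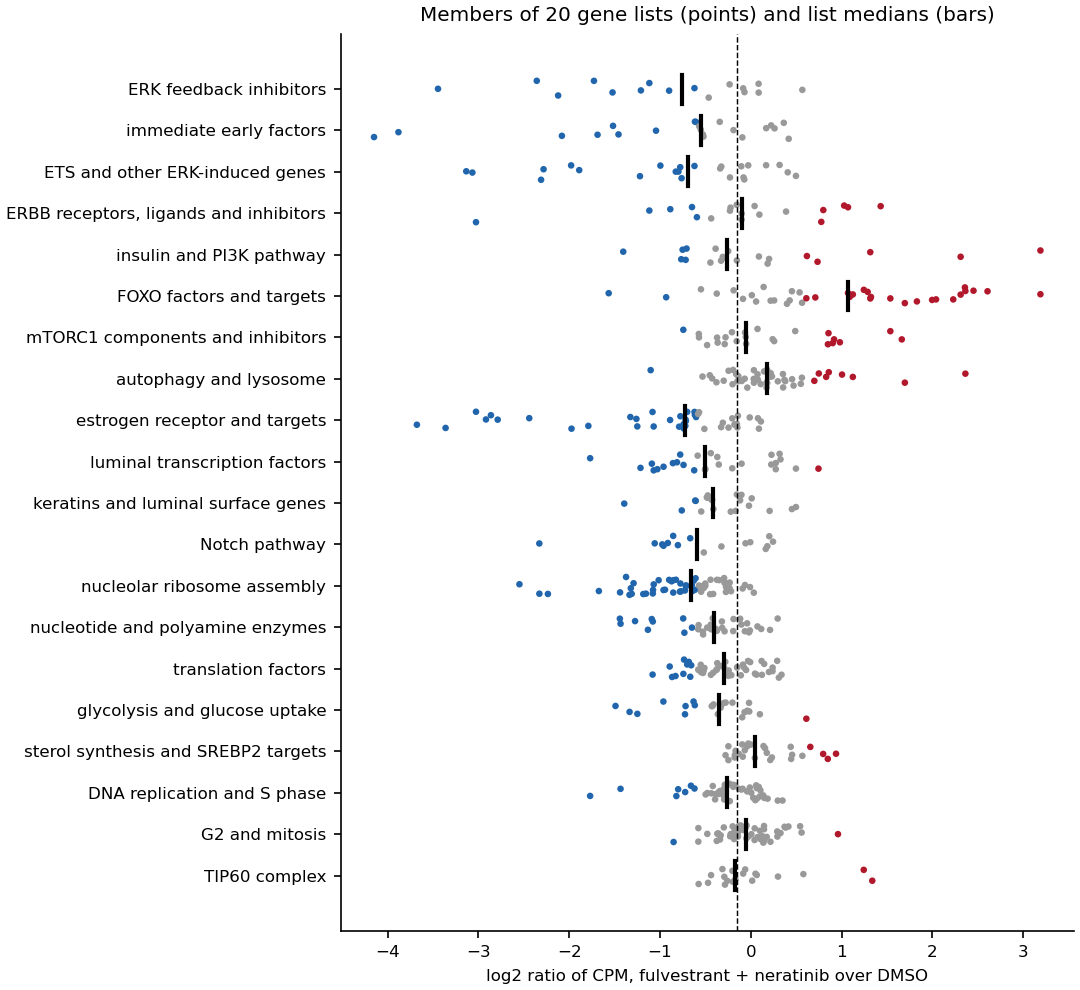
Log2 ratio of CPM, fulvestrant + neratinib over DMSO (x axis), for each measured member (points) of 20 gene lists (rows). Red points rose, blue points fell, black bars are list medians and the dashed line is the median of all genes. The FOXO median is at 1.07 and the ERK feedback median at -0.76.

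Estrogen receptor targets fell in 28 of 44 measured cases (63.6%, against 15.7% of all genes) and rose in 0, with a median of -0.72. With the scaling to the median ratio 17 fell. MYC had 5.93 CPM with both drugs (5.44 to 6.46) and 75.9 CPM with DMSO (74.2 to 77.6), 12.8-fold lower at -3.68 [-3.81, -3.55]. CCND1, which encodes cyclin D1, had 30.7 CPM with both drugs and 315 CPM with DMSO, 10.3-fold lower at -3.36. With a single drug, CCND1 had 45.2 CPM with neratinib and 246 CPM with fulvestrant. TSKU, a secreted proteoglycan, had 7.53 CPM with both drugs and 56.8 CPM with DMSO (-2.92). CISH, a suppressor of cytokine signalling, had 1.85 CPM with both drugs and 13.4 CPM with DMSO (-2.86). The nucleotide receptor P2RY2 had -2.79, and the secreted glycoprotein STC2 -2.44. The classical reporters of the receptor moved less after 4 h. PGR fell to 93.6 CPM with both drugs, against 143 CPM with DMSO (-0.62 [-0.65, -0.58]). GREB1 had 28.5 CPM with both drugs and 42.2 CPM with DMSO (-0.57), just under the fold used. TFF1 had 1728 CPM with both drugs and 2137 CPM with DMSO (-0.31). ESR1, the receptor's own gene, had 12.7 CPM with both drugs and 14.6 CPM with DMSO (-0.20).

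Nuclear receptor coregulators moved at shares near those of all genes, with 10% of 20 measured higher and 20% lower. Those that rose were the acetyltransferase CREBBP (0.63) and the coactivator NCOA2 (0.64). CARM1 (-0.86), NCOA1 (-0.67), NCOA6 (-0.61) and NRIP1 (-0.60) fell.

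Luminal transcription factors fell in 11 of 27 measured cases (40.7%, against 15.7% of all genes) and rose in 1 (3.70%, against 8.01%). ZNF703, a luminal oncogene, had 12.3 CPM with both drugs and 42.0 CPM with DMSO (-1.77). XBP1 fell to 223 CPM with both drugs, against 468 CPM with DMSO (-1.07), and GATA3 to 144 CPM with both drugs, against 221 CPM with DMSO (-0.62). CEBPA (-1.21), CEBPB (-1.03) and CEBPG (-1.09) fell together. ASCL2, a basic helix-loop-helix factor outside that list, was among the 20 lowest genes at a mean of at least 10 CPM. It had 23.0 CPM with both drugs and 96.3 CPM with DMSO. The luminal keratin gene KRT19 fell to 1106 CPM with both drugs, against 2904 CPM with DMSO (-1.39), and KRT18 to 1158 CPM with both drugs, against 1961 CPM with DMSO (-0.76). KRT8 (-0.61) and the junction gene CLDN7 (-0.61) passed the fold narrowly. Of 21 keratin and surface genes, 4 fell (19.0%, near the 15.7% of all genes), and 1 with the scaling to the median ratio.

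Notch pathway genes fell in 8 of 16 measured cases (50%, against 15.7% of all genes) and rose in 0, with a median of -0.59. JAG2 (-0.67) is among these falls and misses the fold with the scaling to the median ratio. The target factor HEY2 had 1.61 CPM with both drugs and 8.07 CPM with DMSO (-2.33). HES1 fell to 88.6 CPM with both drugs, against 172 CPM with DMSO (-0.96), HES4 to 130 CPM with both drugs, against 256 CPM with DMSO (-0.97), and the receptor gene NOTCH1 had -0.85.

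The MYC network and the ribosome assembly genes often tied to it are taken next. MXI1 (to 20.6 CPM with both drugs, against 8.69 CPM with DMSO), MXD3 (1.02) and MNT (0.60), which compete with MYC for its partner MAX, rose, and MLX (-0.75) fell. Of 60 measured nucleolar ribosome assembly genes, 35 fell (58.3%, against 15.7% of all genes) and 0 rose, with a median of -0.65. RRS1, a large-subunit assembly factor, had 6.998 CPM with both drugs and 40.9 CPM with DMSO, 5.85-fold lower at -2.55. URB2 (-2.33), PPAN (-2.23), NOP16 (-1.67), BYSL (-1.44) and PNO1 (-1.37) followed. PAK1IP1, a factor of the same process that is outside the list, had 9.47 CPM with both drugs and 35.9 CPM with DMSO (-1.92), and CCDC86 had 4.11 CPM with both drugs and 16.5 CPM with DMSO. The structural and abundant nucleolar genes moved less, with NPM1 at 0.03 and FBL at -0.09, looked up after the list was seen. Genes of the ribosomal proteins themselves did not follow. Of 81 measured, 0 rose and 2 fell (2.47%, against 15.7% of all genes), RPS26 (-0.72) and RPL39L (-0.63). The ribosomal protein genes took 21.1% of UMIs with both drugs and 19.95% with DMSO.

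The E-box CACGTG, to which MYC and MAX bind, is shown in capitals in the RefSeq windows of PAK1IP1, at chr6:10694722-10695021 on the plus strand, and CREBRF, at chr5:173056102-173056401 on the plus strand, a gene that fell and one that rose (GRCh38.p14).
PAK1IP1: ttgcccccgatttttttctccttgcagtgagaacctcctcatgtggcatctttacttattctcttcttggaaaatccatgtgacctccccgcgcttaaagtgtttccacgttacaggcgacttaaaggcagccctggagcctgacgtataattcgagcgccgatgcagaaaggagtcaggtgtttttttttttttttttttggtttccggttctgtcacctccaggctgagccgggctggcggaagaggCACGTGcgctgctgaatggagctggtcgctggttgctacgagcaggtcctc
CREBRF: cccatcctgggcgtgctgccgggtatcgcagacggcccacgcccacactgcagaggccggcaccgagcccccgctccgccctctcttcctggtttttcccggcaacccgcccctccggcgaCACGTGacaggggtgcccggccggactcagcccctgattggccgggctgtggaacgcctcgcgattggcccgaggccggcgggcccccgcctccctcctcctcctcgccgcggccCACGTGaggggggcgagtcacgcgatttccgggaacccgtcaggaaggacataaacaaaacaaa
On either strand, CACGTG was in 7.43% of all windows and in 20 of the 51 nucleolar genes with a window (39.2%). All windows include genes not measured here, while the list holds measured genes only. The share over measured genes was not computed. Of those nucleolar genes some did not fall, FBL (-0.09) among them. The motif was also in 7 of the 31 FOXO genes with a window (22.6%). Of these, CREBRF, CCNG2, ATG14 and CITED2 rose, while BBC3 (0.54), GADD45B (0.14) and KLF11 (-0.19) neither rose nor fell.

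Enzymes that supply nucleotides and polyamines fell in 9 of 34 measured cases (26.5%, against 15.7% of all genes) and rose in 0. Among these falls, DHODH (-0.74), GMPS (-0.73) and UMPS (-0.65) miss the fold with the scaling to the median ratio. AMD1 had 24.3 CPM with both drugs and 66.0 CPM with DMSO (-1.44), ODC1 had a log2 ratio of -1.09, and SRM had 61.7 CPM with both drugs and 135 CPM with DMSO (-1.13), all enzymes of polyamine synthesis. RRM2, a ribonucleotide reductase subunit, had 15.5 CPM with both drugs and 42.0 CPM with DMSO (-1.43). Translation factors fell in 10 of 49 measured cases (20.4%, near the 15.7% of all genes), led by the helicase EIF4A1 (-1.08), with 6 under the 20% mitochondrial ceiling and 4 with the scaling to the median ratio. SNHG15, a host gene of small nucleolar RNAs, had 11.7 CPM with both drugs and 55.6 CPM with DMSO (-2.24), while SNHG7 (0.61) and EPB41L4A-AS1 (0.69) rose.

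Among cell cycle genes, CCNE1 (-1.77), the phosphatase CDC25A (-1.48) and the activating factor E2F3 (-1.53) fell with CCND1, while CCNG2, an inhibitory cyclin, rose to 245 CPM with both drugs, against 97.8 CPM with DMSO (1.32). Of 43 measured cyclins, kinases and inhibitors, 10 fell (23.3%, against 15.7% of all measured genes) and 3 rose (6.98%, against 8.01%). With the scaling to the median ratio 5 rose. Of 50 replication genes, 7 fell (14%, near the 15.7% of all genes) and 0 rose, with a median of -0.26. Of 56 mitotic genes, 1 fell, CDC20 (-0.85), and 1 rose, CDC25C (0.96), with a median of -0.05. Each direction held 1.79% of the list, against 15.7% lower and 8.01% higher among all genes.

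Metabolic lists split. Glycolysis and glucose uptake fell in 8 of 24 measured cases and rose in 1 (33.3% and 4.17%, against 15.7% and 8.01% of all genes). Among the falls were PFKFB3 (-1.49), PFKFB4 (-1.33), the lactate exporter SLC16A3 (-1.25), hexokinase HK2 (-0.96) and SLC2A1 (-0.72). With the scaling to the median ratio 4 fell. VEGFA had 9.22 CPM with both drugs and 24.5 CPM with DMSO (-1.41). Sterol synthesis genes fell in 0 of 27 measured cases and rose in 4 (14.8%, against 8.01% of all genes). INSIG1, the sterol-responsive brake on SREBP, had 45.5 CPM with both drugs and 23.7 CPM with DMSO (0.94), and MSMO1 (0.85) and HSD17B7 (0.80) rose too. With the scaling to the median ratio 8 rose. Fatty acid synthesis had 2 falls in 23 (8.70%, below the 15.7% of all genes), the desaturase FADS1 (-0.95) and LPIN2 (-1.05). Of 33 ATF4 targets and amino acid stress genes, 12 fell and 3 rose (36.4% and 9.09%, against 15.7% and 8.01% of all genes). The falls were 7 under the 20% ceiling and 6 with the scaling to the median ratio. TRIB3 went to 37.7 CPM with both drugs, against 81.7 CPM with DMSO. Of 40 nuclear-encoded respiratory genes, 2 fell (5%, below the 15.7% of all genes), CYCS and POLRMT. All 13 mitochondrially encoded genes had log2 ratios above 0, between 0.14 and 0.46, and 0 reached the fold.

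The series title names BRD8, a bromodomain protein of the TIP60 acetyltransferase complex. BRD8 rose to 58.9 CPM with both drugs (57.4 to 60.5), against 23.3 CPM with DMSO (22.4 to 24.3), 2.53-fold at 1.34 [1.27, 1.41]. MBTD1, a methyl-lysine reader of the same complex, rose to 34.8 CPM with both drugs, against 14.7 CPM with DMSO (1.24). The other 18 of 20 measured subunits did not pass, and the list's median of -0.17 was near that of all genes. The share that rose was 10%, near the 8.01% of all genes. Of 21 BET proteins and elongation factor regulators, MLLT1 (-0.73) was the 1 that fell (4.76%, against 15.7% of all genes).

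Transcripts that encode no protein were higher more often than coding ones. Among 414 long intergenic noncoding genes by annotation, 35.02% rose and 10.6% fell, with a median of 0.32. Among 505 antisense genes, 28.7% rose and 11.3% fell. Among 11220 protein-coding genes, 6.04% rose and 16.1% fell. Small counts pass a fold in both directions more easily, so the classes were also set side by side at like levels. Between 1 and 3 CPM, 39.7% of intergenic noncoding genes rose, against 15.96% of coding ones, and between 10 and 30 CPM, 22.5% rose, against 4.46% of coding ones. Antisense genes rose in 32.03% of cases between 1 and 3 CPM and in 23.3% between 10 and 30 CPM. Between 30 and 100 CPM, 14.3% of 14 intergenic genes rose and 21.4% fell, and of 14 antisense genes 0 rose and 0 fell, against 2.95% and 11.2% of coding ones. Above 100 CPM there were only 3 intergenic and 4 antisense genes. LINC01089 was the highest of them above 10 CPM, with 34.9 CPM with both drugs and 11.2 CPM with DMSO (1.64). Of 40 measured genes with histone names, 13 rose and 4 fell (32.5% and 10%, against 8.01% and 15.7% of all genes). With the scaling to the median ratio 0 fell. These 40 genes include 1 antisense RNA, H1FX-AS1 (0.52), which neither rose nor fell. HIST1H2BD was highest, at 29.1 CPM with both drugs and 9.16 CPM with DMSO (1.67), and many clustered histone genes are near-identical copies whose reads can be split between members.

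The other 2 libraries show how the same genes stood with each drug alone. They share the DMSO library as control, so the values are given side by side and not tested against each other. Against DMSO, 849 genes were called higher and 1820 lower with neratinib alone, and 12 and 71 with fulvestrant alone. With both drugs these counts were 974 and 1907. The median cell had 20.95% mitochondrial UMIs with neratinib alone and 16.6% with fulvestrant alone, against 21.04% with both drugs and 16.2% with DMSO. FOS had 2.27 CPM with both drugs, 2.31 with neratinib, 42.0 with fulvestrant and 40.3 with DMSO. IRS2 had 17.6 CPM with both drugs, 16.6 with neratinib, 1.68 with fulvestrant and 1.92 with DMSO, and BRD8 58.9, 59.0, 22.4 and 23.3 CPM in the same order of libraries. For these genes the level with both drugs lay near that with neratinib alone. MYC had 5.93 CPM with both drugs, 60.8 with neratinib, 15.7 with fulvestrant and 75.9 with DMSO. TSKU had 7.53 CPM with both drugs, 46.1 with neratinib, 17.4 with fulvestrant and 56.8 with DMSO. HEY2 had 1.61 CPM with both drugs, 5.26 with neratinib, 2.71 with fulvestrant and 8.07 with DMSO. In each of these 3 the library with both drugs had the lowest level of the 4, and so it had for AREG, at 8.54 CPM with both drugs, 24.3 with neratinib, 35.9 with fulvestrant and 69.5 with DMSO. PGR differed, with 93.6 CPM with both drugs, 173 with neratinib, 81.9 with fulvestrant and 143 with DMSO. INSIG1 was highest with both drugs, at 45.5 CPM, against 30.4 with neratinib, 34.5 with fulvestrant and 23.7 with DMSO.

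**Figure D3:**
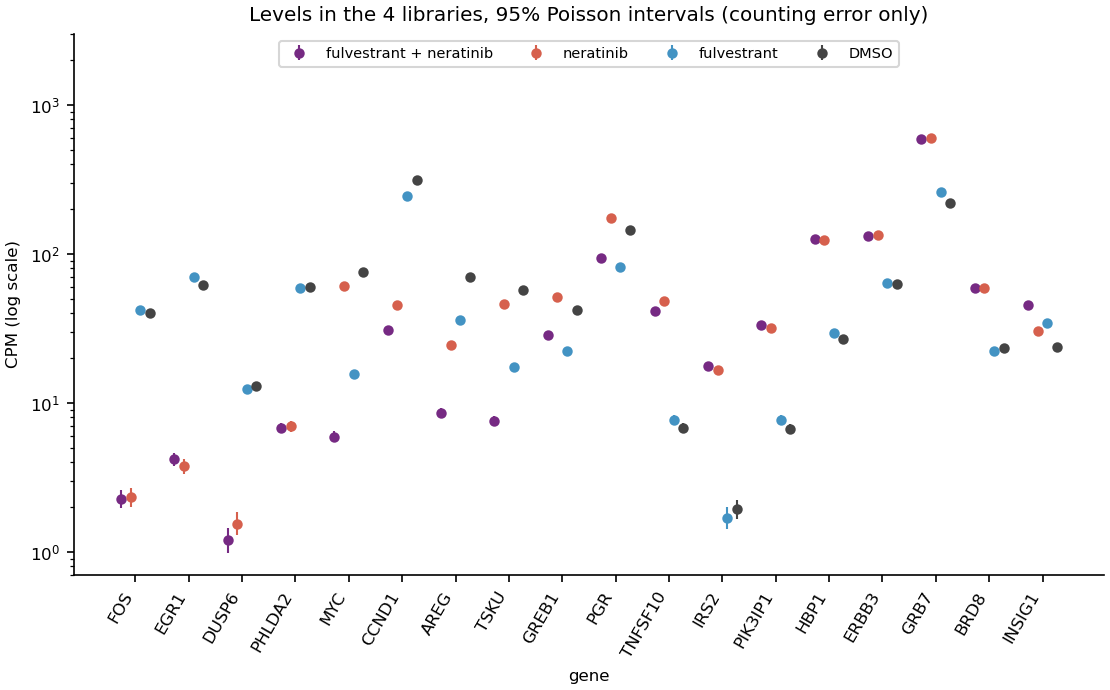
CPM (y axis, log scale) of 18 genes (x axis) in the 4 libraries, left to right both drugs, neratinib, fulvestrant and DMSO, with 95% Poisson intervals that cover counting error only. MYC, AREG and TSKU are lowest with both drugs, while FOS, IRS2 and BRD8 with both drugs lie near neratinib alone.

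The share of cells with a UMI of a gene was computed as well. Each cell was thinned to 5000 UMIs so that depth was equal, with no cell left out. EGR1 was detected in 2.34% of cells with both drugs (95% interval 1.89% to 2.87%), against 26.1% of DMSO cells (24.8% to 27.4%), and without thinning in 7.68% of cells with both drugs and 64.9% of DMSO cells. CCND1 was detected in 13.4% of cells with both drugs and 73.6% of DMSO cells. HBP1 was detected in 45.6% of cells with both drugs and 13.7% of DMSO cells, and KLHL24 in 43.8% of cells with both drugs and 10.8% of DMSO cells. IRS2 was detected in 9.11% of cells with both drugs and 1.04% of DMSO cells. No cell type in this line lacks these genes and could serve as a measure of free RNA. Barcodes of 1 to 100 UMIs, taken as free RNA, held EGR1 at 7.17 CPM with both drugs and 90.1 CPM with DMSO, and HBP1 at 168.5 CPM with both drugs and 38.96 CPM with DMSO. These levels lie in the same order as in the cells and above them. Such barcodes are shallow, with a mean of 6.28 UMIs with both drugs and 5.84 with DMSO, and an EGR1 UMI was in 0.00450% of them with both drugs and in 0.0526% with DMSO. How many UMIs of free RNA a droplet with a cell received is not given by these values, and the part of free RNA in the shares was not tested.

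Summed over the 37 FOXO genes, the median thinned cell had 9 UMIs with both drugs and 4 with DMSO. Of cells with both drugs 91.2% lay above the DMSO median, against 48.9% of DMSO cells, and 39.5% lay above the DMSO 95th percentile, against 4.93%. The 37 ERK feedback and immediate early genes had a median of 10 UMIs with both drugs and 13 with DMSO, and the 44 estrogen receptor genes 21 with both drugs and 31 with DMSO. Cells below the DMSO median for the ERK genes and above it for the FOXO genes made up 65.2% with both drugs (63.7% to 66.7%) and 21.5% with DMSO (20.3% to 22.8%). Cells with neither property made up 1.71% with both drugs and 24.9% with DMSO. The distributions of the 2 libraries overlapped, and free RNA enters these sums as well.

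**Figure D4:**
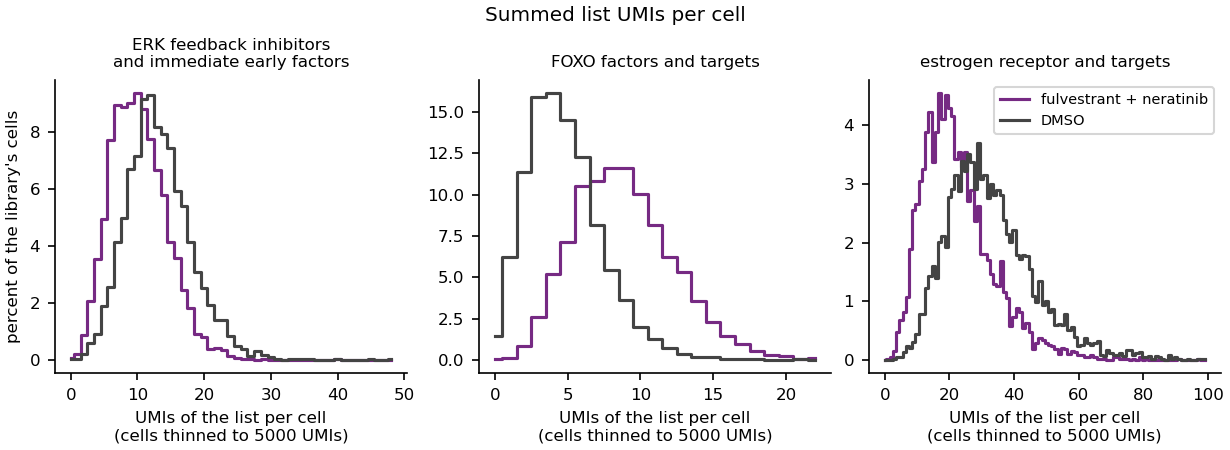
Percent of each library's cells (y axis) by the UMIs of a gene list per cell after thinning to 5000 UMIs (x axis), for 3 lists, with fulvestrant + neratinib in purple and DMSO in grey. The FOXO curve lies to the right with both drugs (median 9, against 4) and the ERK and estrogen receptor curves to the left (medians 10 against 13, and 21 against 31).

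The ratios were also computed within classes of cells by mitochondrial share, which was higher with both drugs, and by scored cycle phase. The 20 highest and the 20 lowest genes kept their direction and at least a 1.5-fold ratio in G1, in S and in G2 or M. EGR1 had log2 ratios of -3.62 in G1, -3.76 in S and -4.71 in G2 or M, and HBP1 2.05, 2.53 and 2.32. They did so too in each of 4 classes of mitochondrial share, of 15% or less (168 cells with both drugs and 1401 with DMSO), 15 to 20% (1295 and 2270 cells in that order), 20 to 25% (1744 and 460) and over 25% (593 and 109). In the lowest class FOS had 2.22 CPM with both drugs and 40.5 CPM with DMSO, and HBP1 had 122 CPM with both drugs and 26.3 CPM with DMSO. EGFR changed sign there, with 10.3 CPM with both drugs and 8.72 CPM with DMSO (0.23 [-0.30, 0.73]), an interval that holds 0.

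**Figure D5:**
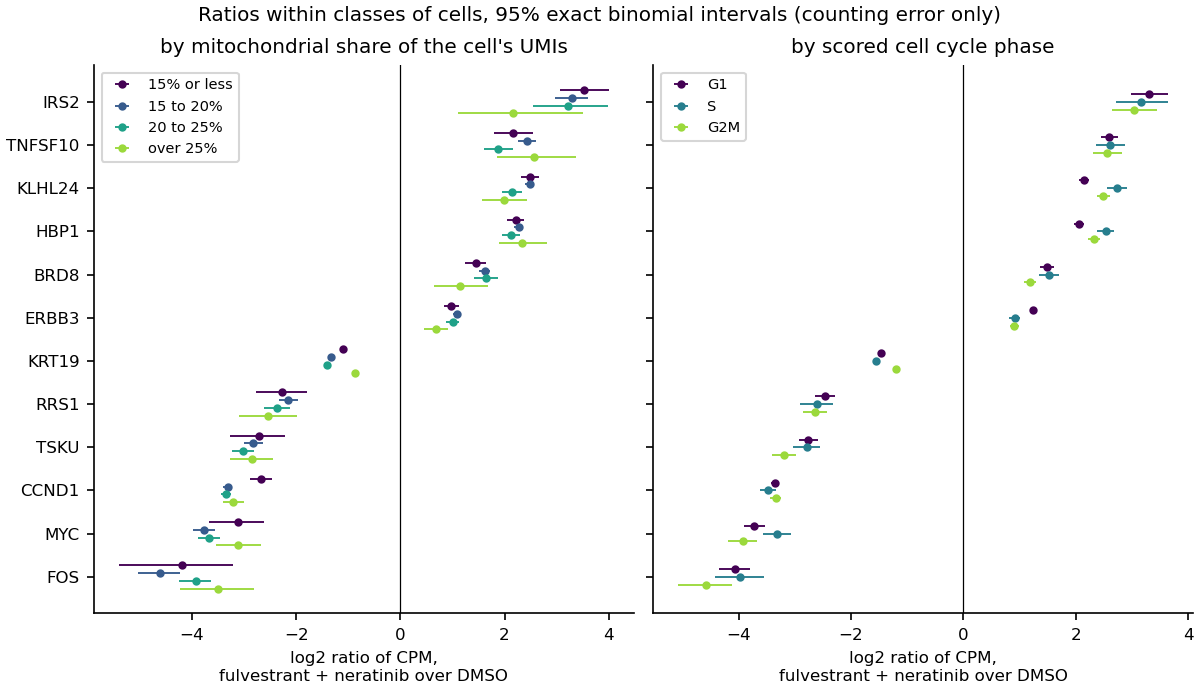
Log2 ratio of CPM, fulvestrant + neratinib over DMSO (x axis), of 12 genes (rows) within 4 classes of mitochondrial share (left) and 3 scored cycle phases (right), with 95% intervals for counting error only. The 12 genes drawn keep their side of 0 in each class, FOS lying between -3.50 and -4.62 on the left.

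Of the 20 genes with the largest differences in absolute CPM, 9 were mitochondrially encoded, led by MT-CO2 at 49238 CPM with both drugs and 37146 CPM with DMSO (0.41). MALAT1, a nuclear noncoding RNA, had a log2 ratio of 0.17, NEAT1 of the paraspeckles one of 0.39 and the elongation factor gene EEF1A1 one of 0.24. KRT19 and KRT18, which fell, were on that list as well, and so was IGFBP5, a binding protein for IGF1, at 999.5 CPM with both drugs and 1586 CPM with DMSO (-0.67). ACTB, beta actin, had 1471 CPM with both drugs and 2190 CPM with DMSO (-0.57), just under the fold. Targets of YAP and SRF fell in 8 of 26 measured cases and rose in 2. These shares were 30.8% and 7.69%, against 15.7% and 8.01% of all genes. The falls included FHL2 (-1.81), TEAD4 (-1.32) and ZYX (-1.25), and with the scaling to the median ratio 5 fell.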

How the data were processed

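Counts were taken from the deposited matrix, whole-number UMI counts of 33538 genes per barcode which the authors produced; the submitters' processing notes name Cell Ranger 3.1.0 for this. Per the labels, libraries were made with 10x Genomics 3' v3 chemistry, targeting 3000 cells at 60000 reads per cell. The notes name hg19 while the gene IDs matched a GRCh38 gene table (33113 IDs), so no coordinates of the deposited files are printed. No source used here says whether depth was evened between libraries.

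Barcodes were kept as cells by the filters in the report. No doublet caller was run and doublets were kept. Counts were summed per library and scaled to CPM. Intervals are exact: conditional binomial for ratios, Poisson for levels and Clopper-Pearson for shares, all at 95% and for counting error only. Cycle phase was scored with scanpy 1.11.5, was not checked against DNA content, and can take in free RNA. Scripts ran in Python with numpy, scipy and pandas, and the ratio code was tested on simulated data.

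Named genes were 11 genes always given, the 20 highest and 20 lowest ratios at a mean of at least 10 CPM without mitochondrial and ribosomal protein genes, the 20 greatest CPM differences, and up to 6 members of each list with the greatest ratio. The members, gene lists and alternatives were chosen with earlier results of these data known. A gene can sit in several lists, and 48 genes share a symbol with another and were kept apart by ID. Some genes that this rule names are not reported here.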

Additional observations from a re-analysis of the deposited data

Results flagged for a closer look

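Barcodes of 1 to 100 UMIs, far below the minimum for a cell and used in no comparison, carried the same signal as the cells. The named sets of 20 genes with the highest and 20 with the lowest ratios hold only genes with a mean of at least 10 CPM. Of the 20 highest, 20 were also higher in such barcodes with both drugs than in those with DMSO, with log2 ratios between 0.88 and 2.54. Of the 20 lowest, 20 were also lower there, between -3.97 and -1.49. TNFSF10 had 28.5 CPM with both drugs and 7.05 CPM with DMSO in these barcodes. Such barcodes number 822576 with both drugs and 874005 with DMSO. No library was free of both cells and drug, so what part of this RNA came from the cells of the same library was not tested.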

How the results depend on the processing

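The counts of 974 genes higher and 1907 lower moved with the fold asked for, to 1821 and 4041 at a fold of 5 to 4 and 398 and 611 at 2-fold. Scaling so that the median ratio of genes with a mean of at least 20 CPM was 0 gave 1472 higher and 1179 lower. It moved the median of all genes to 0.03, against -0.07 without the mitochondrially encoded genes. A minimum of 10 CPM left 260 higher and 957 lower, since fewer genes were tested, and no minimum gave 2334 higher, since more were. A mitochondrial ceiling of 20%, a minimum of 10000 UMIs, G1 cells alone, the mean of per-cell CPM and the total without mitochondrial genes kept both counts within 1.5 times, and 842 of the 974 higher genes and 1524 of the 1907 lower ones were called under the 20% ceiling. Of 282 recomputed ratios of called genes, 0 had another sign. Of 57 list medians, 25 took the other sign under some alternative, the farthest of them from 0 being reported at -0.26. No paired analysis was possible because each group is 1 library, and for the same reason no replicate could be left out. Depth limits genes near 1 CPM, such as EPHA2 with 20 UMIs with both drugs and 189 with DMSO.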

Other observations

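Some lists that the report leaves out moved in both directions. Of 28 measured ubiquitin ligases and regulators, 6 rose and 7 fell (21.4% and 25%, against 8.01% and 15.7% of all measured genes). OTUD1, a deubiquitinase, had 15.3 CPM with both drugs and 7.38 CPM with DMSO (1.06). RNF144B had 3.86 CPM with both drugs and 7.57 CPM with DMSO (-0.97). Of 17 measured circadian clock genes, 3 rose and 4 fell (17.6% and 23.5%). PER1 rose to 4.04 CPM with both drugs, against 1.94 CPM with DMSO (1.06), while its paralogs PER2 (-1.17) and PER3 (-0.97) fell. The repressor gene BHLHE41 fell (-1.43), and the output factor DBP (0.68) rose.

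Of 168 measured solute carriers, 12 rose and 45 fell (7.14% and 26.8%), with a median of -0.30. With the libraries scaled to a median ratio of 0, 19 rose and 26 fell. SLC1A2, a glutamate transporter, rose to 3.45 CPM with both drugs, against 1.06 CPM with DMSO (1.70). The sulfate transporter gene SLC26A2 (-1.57) and the folate carrier gene SLC19A1 (-1.46) fell. Of 20 measured amino acid transporters, 5 fell and 2 rose (25% and 10%), SLC6A14 going to 5.67 CPM with both drugs, against 12.8 CPM with DMSO (-1.17).

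In the splicing list, 4 of 39 measured genes fell (10.3%, below the 15.7% of all genes) and 1 rose. The factors SRSF7, at 120 CPM with both drugs and 307 CPM with DMSO (-1.36), and SRSF3, at 247 CPM with both drugs and 511 CPM with DMSO (-1.05), fell, while the kinase gene CLK1, which phosphorylates such factors, rose to 19.9 CPM with both drugs, against 12.2 CPM with DMSO (0.71). Of 18 measured interferon response genes, 2 rose and 3 fell (11.1% and 16.7%, near the 8.01% and 15.7% of all genes). Of 21 measured NRF2 targets, 1 rose (4.76%, against 8.01% of all genes), the cystine transporter gene SLC7A11 (0.65), and 0 fell. Of 24 heat shock chaperones, 5 fell (20.8%, near the 15.7% of all genes), among them STIP1 (-0.73) and FKBP4 (-0.71), and 1 rose, DNAJB4 (1.20).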
